A study of Caenorhabditis elegans with 28 samples.

Results

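The fatty acid and retinol-binding genes of *Caenorhabditis elegans*, *far-1* to *far-8*, were followed in hourly mRNA profiles of *ebax-1(tm2321)* and wild-type larvae. Members were looked up by gene name, and all 8 of them were found among the 20392 genes of the counts table. The mutant group was strain HW3527, which carries a deletion allele of *ebax-1*, whose product recruits substrates to a Cullin-RING ubiquitin ligase. The wild-type group was strain N2. Larvae of both strains hatched without food, were plated on food at 25°C with no further treatment, and gave 14 poly(A) RNA libraries per genotype, 1 for each hour from 18 h to 31 h after plating. Following the study, mutant libraries of 21 to 31 h were matched with wild-type libraries sampled 3 h earlier, at 18 to 28 h, which gave 11 pairs at roughly the same stage of development. The study inferred this delay from oscillating genes in the mRNA profiles of this same time course.

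FAR proteins are small helix-rich proteins found in nematodes that bind fatty acids and retinol in a hydrophobic pocket. The worm takes much of its lipid from bacterial food, and carriers of this kind keep such poorly soluble molecules in solution. Most members carry a signal for secretion, whereas FAR-7 lacks one and is held to act inside cells. Because RNA came from whole larvae, fewer cells of a type and less RNA per cell cannot be told apart.

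The libraries held 5701773 to 9304062 counts in *ebax-1(tm2321)* and 5120921 to 9604238 in wild type, so that 1 count-per-million (CPM) stood for 5.70 to 9.30 reads in the mutant and 5.12 to 9.60 in wild type. Each genotype was a single time course. The p-values below therefore measure the scatter of hourly libraries about smooth curves, consecutive hours are not independent, and genotype and culture cannot be told apart. *ebax-1* itself checked the labels: over the matched hours it stood at 17.9 to 49.0 CPM in the mutant (median 25.7) and at 32.3 to 137 CPM in wild type (median 67.7), with a log2 difference of -1.29 (SE 0.092, edgeR quasi-likelihood test, Benjamini-Hochberg adjusted p = 9.80e-07), and reads from outside the deletion still count toward the gene. Body wall muscle markers were lower in the mutant for 8 of 10 genes (summed level 13751 to 16250.5 CPM in the mutant, 15808 to 19421 CPM in wild type), intestine markers were lower for 6 and higher for 2 of 10 (7022 to 8789.7 CPM in the mutant, 7461 to 9720.4 CPM in wild type) and epidermis markers were higher for 5 and lower for 0 of 10 (2276 to 12423 CPM in the mutant, 1630.5 to 11970.1 CPM in wild type). Of all genes tested, 11% were higher and 10.6% lower. The epidermis markers called (*dpy-7*, *rol-6*, *sqt-1*, *sqt-3* and *dpy-13*) swung strongly over time in both genotypes. Their mean levels differed by less than their averaged log2 differences, as for *dpy-7* with 240 CPM in the mutant and 201 CPM in wild type (0.62). The markers *elt-1*, *elt-3*, *lin-26*, *col-10* and *col-12* were not called. Pharynx markers had 1 of 8 genes lower, neuron markers 1 higher and 2 lower of 10, and germ line markers 1 higher of 10. The part of these tissue markers in the *far* results was not tested.

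In the WBcel235 annotation the family sits on 4 chromosomes. *far-1* (WBGene00001385, minus strand) and *far-2* (WBGene00001386, plus strand) lie head to head on chromosome III, with 648 bases between them, and *far-8* (WBGene00001392) is on the same chromosome. On chromosome V, the tails of *far-5* (WBGene00001389, plus strand) and *far-3* (WBGene00001387, minus strand) overlap by 50 bases on opposite strands, and *far-4* (WBGene00001388) lies 904 bases from *far-3* on its strand. *far-6* (WBGene00001390) is on chromosome IV, 3.04 Mb from *ebax-1*, and *far-7* (WBGene00001391) is on chromosome II. The counting used strand, so *far-3* and *far-5* were counted apart, and in WBcel235 no member overlapped another gene on its own strand. Reads were counted on WS220 gene models, whose overlaps and exon lengths were not checked here. The sources used here do not give the treatment of reads shared by close copies, so the split between similar members carries that uncertainty.

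Both neighbours on chromosome III carried nearly all of the family's mRNA. *far-1* and *far-2* together made up 94.3% to 95.6% of all *far* reads in mutant libraries and 94.9% to 95.8% in wild-type libraries. The 8 genes summed to 3106 to 4753 CPM in the mutant (median 4000.1) and 3331 to 4459 CPM in wild type (median 4029.6), or 0.311% to 0.475% and 0.333% to 0.446% of each library. In the mutant the sum was lowest at 18 h (3106 CPM) and highest at 30 h (4753 CPM), and in wild type lowest at 18 h (3331 CPM) and highest at 27 h (4459 CPM), so the total as well as its composition moved with time. Per kilobase of exon over the matched hours, the mean levels in the mutant were 3128 CPM for *far-2*, 3097 for *far-1*, 134 for *far-8*, 80.6 for *far-6*, 20.3 for *far-5*, 13.05 for *far-7*, 8.32 for *far-3* and 0.233 for *far-4*. Wild type had the same order of genes from *far-2* (3159 CPM per kilobase), *far-1* (2854), *far-8* (141), *far-6* (57.9), *far-5* (17.5) and *far-7* (13.1) down to *far-3* (0.984) and *far-4* (0.0363). In that order *far-2* and *far-1* lay within the spread of their hourly levels of each other, as did *far-5* and *far-7* in both genotypes and *far-7* and *far-3* in the mutant.

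**Figure D1:**
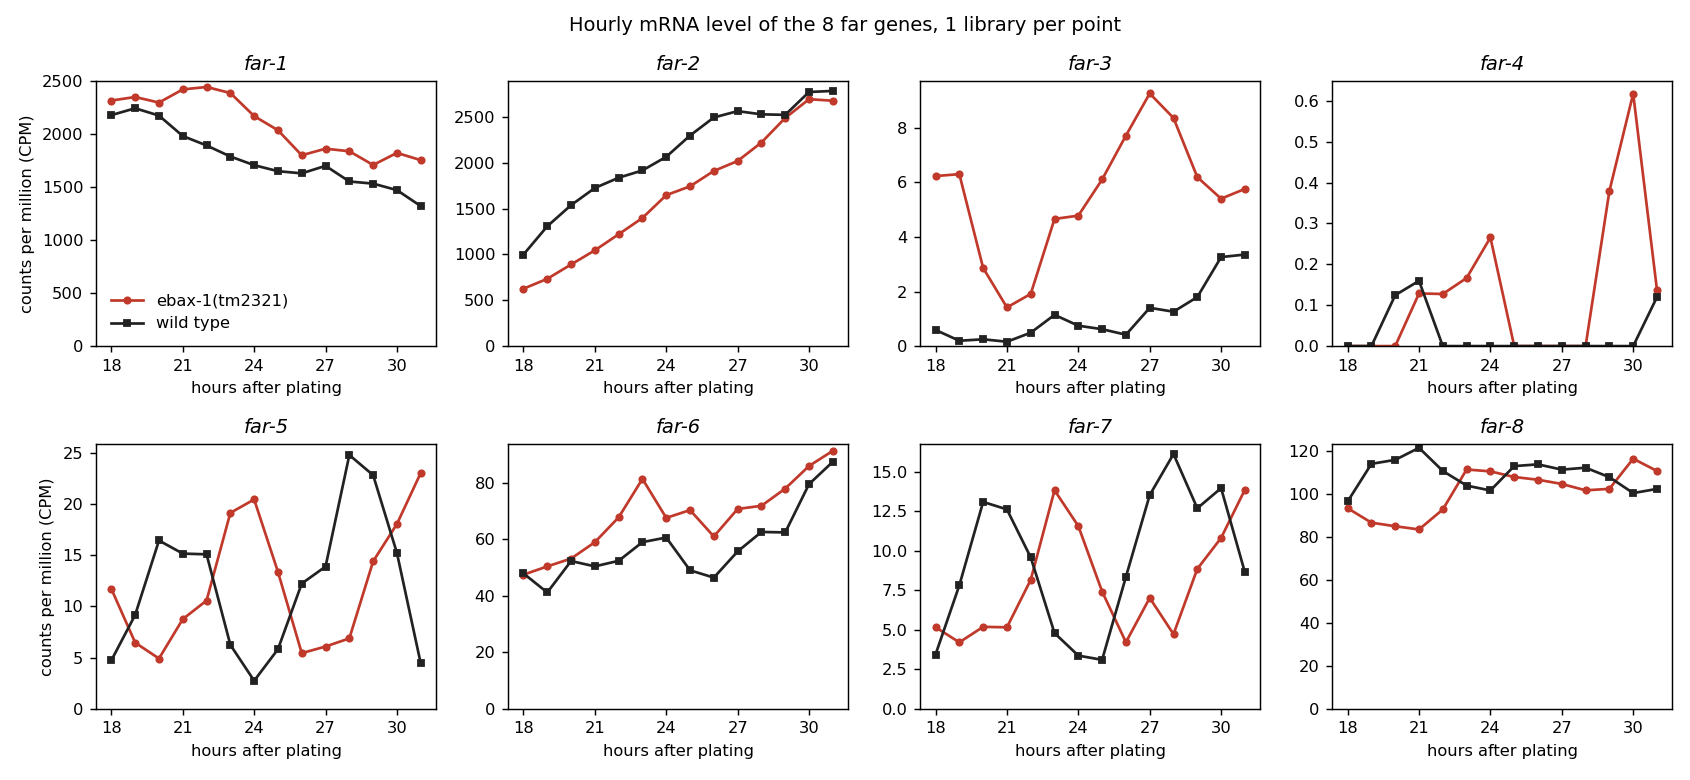
mRNA level in CPM (vertical axes, from 0, on a scale of its own for each gene) against hours after plating for the 8 *far* genes, with *ebax-1(tm2321)* as circles and wild type as squares, 1 library per point. *far-1* fell and *far-2* climbed in both genotypes, *far-5* and *far-7* swung up and down with the mutant later, and *far-3* was above wild type in the mutant at each hour sampled.

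Whether any member differed at roughly the same stage was asked with the genotype contrast averaged over the 11 matched hours. Of the 7 members tested, 4 passed an adjusted p of 0.01 in edgeR: *far-3* and *far-6* were higher in the mutant, and *far-2* and *far-8* were lower by small amounts. Across all 12094 genes tested, 21.7% passed, 11% higher and 10.6% lower, so a call alone was common in these data. The family's median log2 difference was 0.08, beside 0.04 over all genes. *far-4* was left out by the filter on low counts.

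*far-3* had the largest difference in the family. Over the matched hours its lowest, median and highest levels were 1.42, 5.76 and 9.26 CPM in the mutant and 0.160, 0.592 and 1.40 CPM in wild type, from 434 reads in the mutant libraries and 58 in the wild-type libraries. Each of the 11 mutant libraries stood above each of the 11 wild-type libraries, a separation that 0.48% of all genes tested showed in this direction and 0.389% in the other. The means were 5.60 ± 2.43 CPM in the mutant and 0.662 ± 0.434 CPM in wild type (SD, n = 11 hours each), an 8.46-fold ratio.

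The averaged log2 difference of *far-3* was 3.09 (SE 0.16, edgeR adjusted p = 7.68e-08). *far-3* entered the genes tested only through its level in the mutant libraries, as its wild-type counts alone did not reach the low-count filter, and genes kept in this way had to differ. With no filter the edgeR adjusted p was 2.59e-08. The call held in 22 of 22 alternative settings, which gave log2 differences of 1.87 to 3.39, the lowest with the pseudocount of 8 that compresses low levels. The smallest single-pair ratio, 2.39-fold, was that of the mutant at 21 h (11 reads) and wild type at 18 h (5 reads). Wild-type levels were thinly counted, with 1 to 3 reads at 19, 20, 21 and 26 h, so single-pair ratios at those hours are not given.

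*far-3* also had its own course over time. The mutant stood at 6.23 and 6.30 CPM at 18 and 19 h, at 1.42 CPM at 21 h and at 9.26 CPM at 27 h, and then at 5.76 CPM at 31 h. Wild type stayed at 0.160 to 1.40 CPM through 28 h and reached 1.80, 3.26 and 3.36 CPM at 29, 30 and 31 h. Over all 14 hours the ranges therefore overlapped, since wild type at 29 to 31 h exceeded the mutant at 21 h. Those late wild-type hours have no matched mutant library. At the same clock hour the log2 difference was 2.56 (edgeR adjusted p = 1.90e-09).

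*far-6* was higher in the mutant by a smaller factor. Its lowest, median and highest levels over the matched hours were 59.0, 70.8 and 91.4 CPM in the mutant and 41.2, 52.3 and 62.6 CPM in wild type. The mutant library was the higher one in 11 of 11 pairs, something 7.58% of all genes showed (4.23% were lower in 11 of 11 pairs), and 9 of the 11 mutant libraries lay above the highest wild-type library. Single-pair ratios ran from 1.03 at wild-type 23 h to 1.68 at wild-type 26 h. The means were 73.2 ± 10.1 CPM in the mutant and 52.5 ± 6.51 CPM in wild type (SD, n = 11 hours each), and the averaged log2 difference was 0.43 (SE 0.048, edgeR adjusted p = 3.24e-05), called in 22 of 22 alternatives at 0.19 to 0.49. At the same clock hour the log2 difference was 0.19 (edgeR adjusted p = 0.00202). By clock hour the levels were close at 18 h (47.5 CPM in the mutant, 48.0 CPM in wild type). They were also close at 31 h (91.4 CPM in the mutant, 87.5 CPM in wild type). The last matched pair, mutant 31 h and wild-type 28 h, had a ratio of 1.46.

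The fuller test, which asked for any difference in level or shape over the matched hours, passed for 2 of 7 members, against 6.58% of all genes. These were *far-3* (edgeR adjusted p = 6.61e-06) and *far-6* (edgeR adjusted p = 0.00204). The limit given above for *far-3*, a gene kept only through its mutant libraries, holds for this test too. Leaving out the pair at wild-type 21, 23 or 25 h moved *far-6* past the threshold in this test, with edgeR adjusted p = 0.0102, 0.0139 and 0.0233, while *far-3* passed without any 1 pair.

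**Figure D2:**
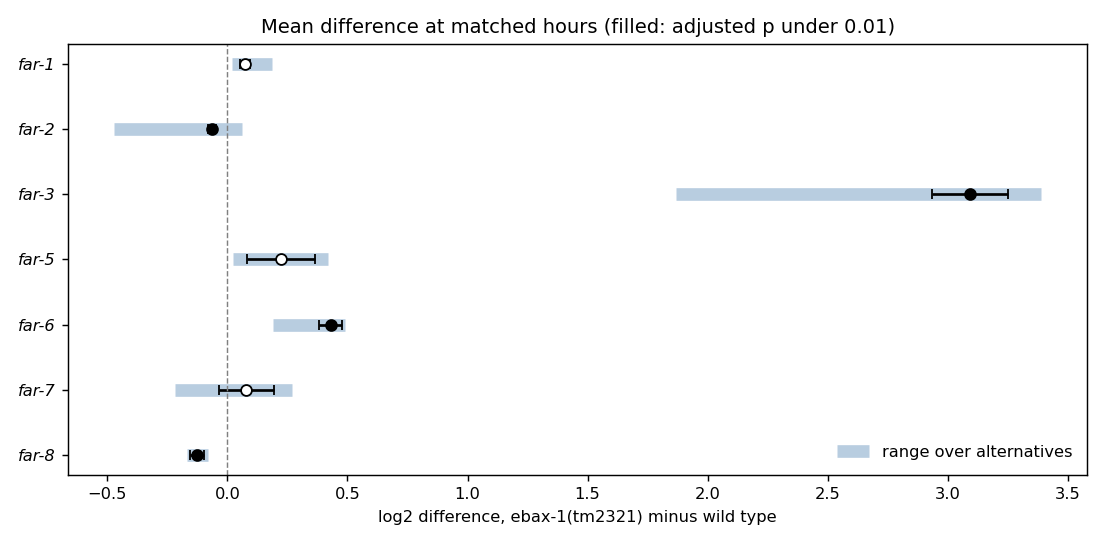
Log2 difference, *ebax-1(tm2321)* minus wild type, averaged over the 11 matched hours for the 7 *far* genes tested, with bars of 1 SE, filled points at an adjusted p under 0.01, and a broad band spanning the 22 alternative settings. *far-3* stands apart at 3.09, *far-6* lies at 0.43 with a band above 0, and the bands of *far-2* and *far-7* cross 0.

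The most abundant members, *far-1* and *far-2*, ran in opposite directions in both genotypes. *far-1* had its lowest, median and highest matched levels at 1709, 1863 and 2445 CPM in the mutant and at 1553, 1789 and 2244 CPM in wild type. The groups overlapped widely. In CPM, which are scaled by library totals alone, the mutant was higher in 11 of 11 pairs, by ratios of 1.01 to 1.13. Of all genes tested, 7.58% were higher in 11 of 11 pairs and 4.23% lower. Means were 2023 ± 285 CPM in the mutant and 1864 ± 247 CPM in wild type (SD, n = 11 hours each). The averaged log2 difference of 0.07 (SE 0.019, edgeR adjusted p = 0.0119) missed the threshold and passed it in 7 of 22 alternatives, among them scaling by total counts alone (log2 difference 0.12, edgeR adjusted p = 0.000522).

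*far-2* had its lowest, median and highest matched levels at 1044, 1910.1 and 2693 CPM in the mutant and at 998, 1916 and 2563 CPM in wild type. Levels in the groups overlapped almost fully, with the mutant lower in 8 of 11 pairs and single-pair ratios of 0.909 to 1.06. The averaged log2 difference was -0.07 (SE 0.017, edgeR adjusted p = 0.00834), and the means were 1914 ± 568 CPM in the mutant and 1933 ± 519 CPM in wild type (SD, n = 11 hours each). This call was lost in 13 of 22 alternatives and changed sign in 1 more, the 4 h shift, where the log2 difference was 0.059. Leaving out any 1 pair other than the one at wild-type 18 h ended it (edgeR adjusted p up to 0.0256), as did total-count scaling (0.219), limma (0.512) and the matched pair as a block (0.0267). The limma fit was also scaled by library totals, so it is not separate from total-count scaling.

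Without the 3 h shift, *far-2* gave a different picture. At the same clock hour the mutant was lower by a log2 difference of -0.47 (edgeR adjusted p = 4.03e-13), and *far-1* was higher by 0.18 (edgeR adjusted p = 1.51e-07). Of the 7 members, 5 passed at the same hour, against 32.2% of all 12169 genes tested there. *far-5* (log2 difference 0.02, edgeR adjusted p = 0.891) and *far-7* (-0.22, edgeR adjusted p = 0.128) were the others. The difference for *far-2* thus moved with the alignment of the hours.

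*far-1* changed by a fitted -0.62 ± 0.058 log2 from 18 to 31 h in the mutant (edgeR adjusted p = 2.42e-06) and by -0.64 ± 0.054 log2 in wild type (edgeR adjusted p = 1.87e-06), the errors being SE. *far-2* changed by 2.09 ± 0.13 log2 in the mutant (edgeR adjusted p = 5.53e-08) and by 1.34 ± 0.13 log2 in wild type (edgeR adjusted p = 3.84e-06). Gradual genes were those with a linear term at an adjusted p under 0.01 and a change of 1 log2 or more. *far-2* met this as a rising gene in both genotypes, 1 of 7 members tested in the mutant and 1 of 6 in wild type, beside 5.64% of all genes rising and 4.19% falling in the mutant (9.83% in all) and 6.23% rising and 5.85% falling in wild type (12.1% in all). The *far-1* slopes passed the test but not the size. At matched hours the linear trends of *far-2* did not pass a test of their difference (edgeR adjusted p = 0.9996 for a slope difference of 0.01 log2 per hour, SE 0.015).

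The ratio of these neighbours within a library needs no scaling between libraries. The log2 ratio of *far-2* to *far-1* ran from -1.89 at 18 h to 0.61 at 31 h in the mutant and from -1.13 to 1.08 in wild type. *far-2* overtook *far-1* once in each genotype, between 25 and 26 h in the mutant (interpolated 25.7 h) and between 22 and 23 h in wild type (22.3 h), 3.42 h apart. At the same clock hour the mutant ratio was lower in 14 of 14 hours, by -1.01 to -0.18 log2. After the 3 h shift the mutant ratio was still lower in 11 of 11 pairs, by -0.27 to -0.01 log2 with a mean of -0.14 ± 0.085 (SD, n = 11 pairs). The ratio was chosen after the values had been seen, so no test is given.

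**Figure D3:**
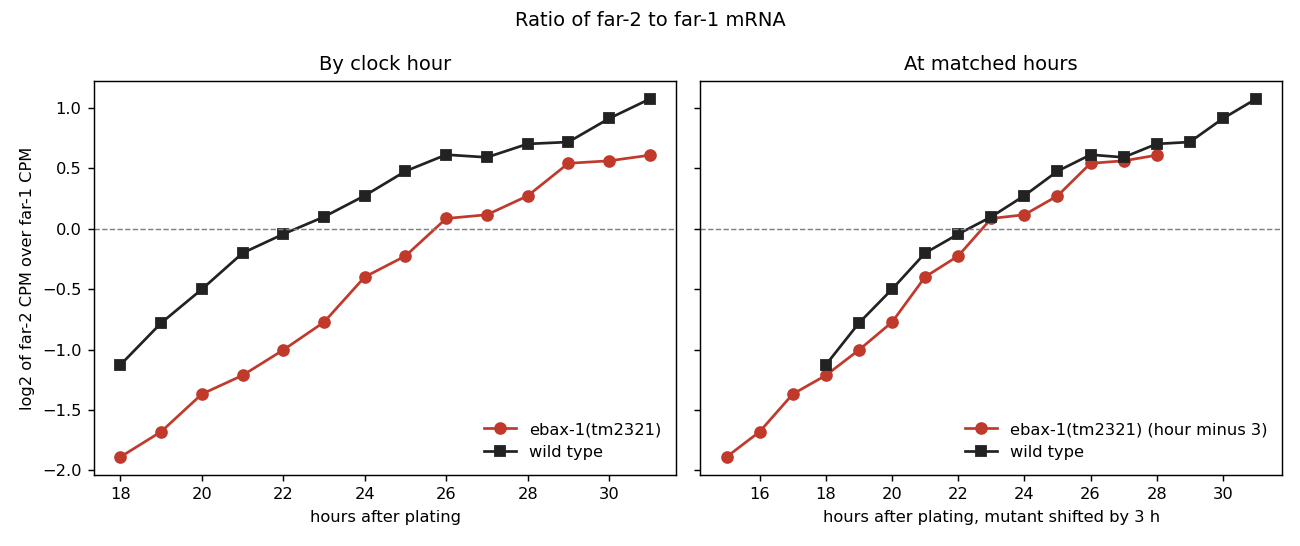
Log2 of *far-2* CPM over *far-1* CPM in each library (vertical axis), with *ebax-1(tm2321)* as circles and wild type as squares, against clock hour on the left and, on the right, with mutant hours reduced by 3. The curves cross 0 at 25.7 h in the mutant and 22.3 h in wild type, and after the shift the mutant curve lies below wild type by up to 0.27.

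*far-8* stayed nearly level. Its lowest, median and highest matched levels were 83.5, 107 and 116 CPM in the mutant and 96.5, 112 and 122 CPM in wild type, so the groups overlapped. Means were 104 ± 9.34 CPM in the mutant and 110.4 ± 7.08 CPM in wild type (SD, n = 11 hours each). The averaged log2 difference was -0.13 (SE 0.029, edgeR adjusted p = 0.00472), with the mutant lower in 8 of 11 pairs. The call was lost in 9 of 22 alternatives, including 5 of the 11 that left out 1 pair (those at wild-type 18, 19, 21, 25 and 26 h, edgeR adjusted p up to 0.0174), total-count scaling (0.0346) and limma (0.061). The difference ran from -0.17 to -0.08 over the alternatives, and single-pair ratios from 0.814 to 1.05. Over time *far-8* changed by 0.35 ± 0.084 log2 in the mutant (edgeR adjusted p = 0.00491) and by 0.03 ± 0.073 log2 in wild type (edgeR adjusted p = 0.79), both under the size for a gradual call.

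*far-5* and *far-7* were the rhythmic members. Each genotype was fitted with a cosine and a sine of 7 h period and a linear term, and oscillating genes were those whose rhythm terms had an adjusted p under 0.01 with an amplitude (from mid-line to crest) of 0.5 log2 or more. In both genotypes 2 members were called, of 7 tested in the mutant and 6 in wild type, beside 16.5% of all genes in the mutant and 17.1% in wild type.

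*far-5* swung between 4.91 CPM at 20 h and 23.1 CPM at 31 h in the mutant and between 2.74 CPM at 24 h and 24.8 CPM at 28 h in wild type. The mutant had a crest of 20.5 CPM at 24 h and was still rising at 31 h, its last hour (23.1 CPM). Wild type had crests of 16.4 CPM at 20 h and 24.8 CPM at 28 h. Fitted amplitudes were 0.94 log2 in the mutant (edgeR adjusted p = 3.36e-06) and 1.08 log2 in wild type (edgeR adjusted p = 0.00022). The first fitted peak fell at 23.5 h in the mutant and 20.9 h in wild type, 2.602 h apart.

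*far-7*, the member without a secretion signal, followed nearly the same course. It stood at 4.203 CPM at 19 h, 13.8 CPM at 23 h, 4.21 CPM at 26 h and 13.9 CPM at 31 h in the mutant, and at 3.43 CPM at 18 h, 13.1 CPM at 20 h, 3.10 CPM at 25 h and 16.1 CPM at 28 h in wild type. Fitted amplitudes were 0.63 log2 in the mutant (edgeR adjusted p = 0.00125) and 0.83 log2 in wild type (edgeR adjusted p = 0.00136), with first peaks at 23.4 h in the mutant and 20.8 h in wild type, 2.51 h apart. The amplitude ratios of mutant to wild type were 0.870 for *far-5* and 0.763 for *far-7*, and the tests of a rhythm difference at matched hours gave edgeR adjusted p = 0.672 and 0.243, so no difference in amplitude was shown. The fitted linear changes of *far-5* were 0.19 ± 0.18 log2 in the mutant (edgeR adjusted p = 0.453) and 0.80 ± 0.37 log2 in wild type (edgeR adjusted p = 0.105), with SE as errors. Those of *far-7* were 0.41 ± 0.26 log2 in the mutant (edgeR adjusted p = 0.236) and 1.14 ± 0.36 log2 in wild type (edgeR adjusted p = 0.0219), the last of which was called gradual with a 7.5 h period (1.07 log2, edgeR adjusted p = 0.00819).

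At matched hours neither rhythmic gene passed the test of the mean. *far-5* had its lowest, median and highest levels at 5.44, 13.4 and 23.1 CPM in the mutant and at 2.74, 12.2 and 24.8 CPM in wild type, and the log2 difference was 0.22 ± 0.14 (SE, edgeR adjusted p = 0.249), the mutant being higher in 8 of 11 pairs. *far-7* had 4.21, 8.16 and 13.9 CPM in the mutant and 3.10, 8.35 and 16.1 CPM in wild type, and the log2 difference was 0.08 ± 0.11 (SE, edgeR adjusted p = 0.634), the mutant being higher in 6 of 11 pairs. The groups overlapped over almost their full ranges for both genes. The sign for *far-7* turned without the pair at wild-type 24 h (-0.032), and with a 2 h shift (-0.048) or no shift (-0.22).

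**Figure D4:**
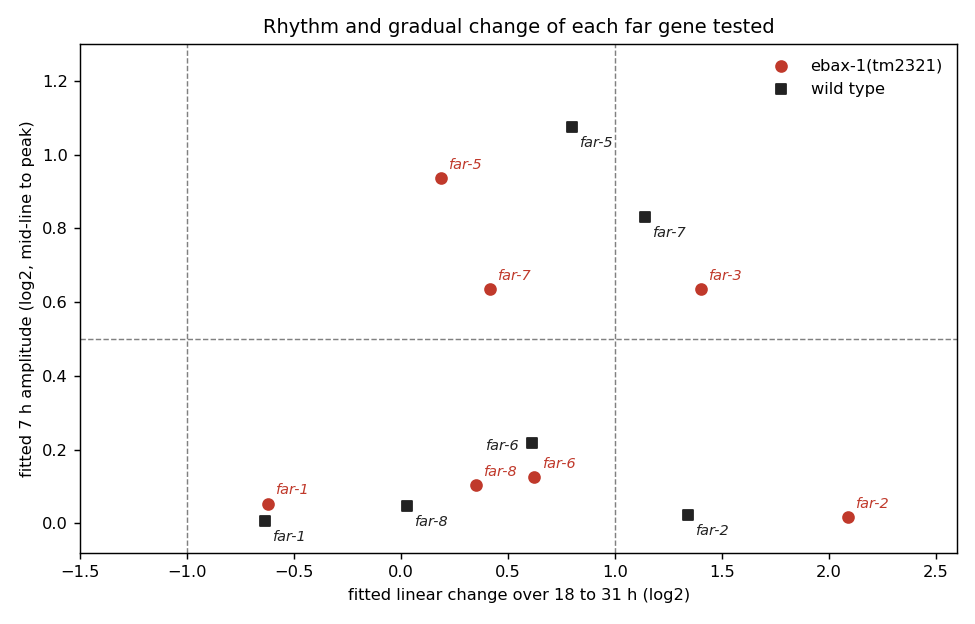
Fitted 7 h amplitude in log2 (vertical axis) against the fitted linear change over 18 to 31 h in log2 (horizontal axis) for each *far* gene tested, with *ebax-1(tm2321)* as circles, wild type as squares and dashed lines at the sizes required for a call (0.5 and 1 log2). *far-5* and *far-7* lie above the amplitude line in both genotypes, *far-2* lies beyond the gradual line in both, and *far-7* in wild type and *far-3*, tested in the mutant alone, lie beyond it without passing the test of the linear term.

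The remaining members were called neither oscillating nor gradual with the 7 h period. *far-6* rose by a fitted 0.62 ± 0.089 log2 in the mutant (edgeR adjusted p = 0.000106) and 0.61 ± 0.15 log2 in wild type (edgeR adjusted p = 0.00589), under the size for a gradual call. *far-3* in the mutant had an amplitude of 0.64 log2 (edgeR adjusted p = 0.0608) and a change of 1.40 ± 0.46 log2 (edgeR adjusted p = 0.0275). With a period of 7.5 h both were called, at an amplitude of 0.75 log2 (edgeR adjusted p = 0.00503) and a change of 1.56 log2 (edgeR adjusted p = 0.00431), which made 3 oscillating members in the mutant. In wild type *far-3* did not reach the low-count filter. With the looser filter its change was 3.08 ± 0.53 log2 (edgeR adjusted p = 0.000306), a setting chosen after the data had been seen.

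Differences in the shape of the time course between genotypes, at matched hours, were called for 0 of 7 members in edgeR by the spline interaction, by the 7 h rhythm terms and by the linear trend. At an unadjusted p under 0.05 the counts were 1 (*far-3*), 2 (*far-6* and *far-7*) and 0, beside 10.4%, 14.8% and 5.32% of all genes. After adjustment all genes together gave 0%, 0.0331% and 0% by these tests, and limma called 0 members by each of them.

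How far each time course was displaced was read from the whole-hour lag, from 0 to 6 h, that left the least root mean square log2 difference between mutant and wild type. That lag was 3 h for *far-2* (0.073 log2), *far-5* (0.423 log2) and *far-7* (0.371 log2), and 4 h for *far-1* (0.0936 log2) and *far-8* (0.0784 log2). *far-3* and *far-6*, the members called higher in the mutant, were closest at 0 h, with 1.77 and 0.29 log2, where a 3 h lag left 2.01 and 0.512 log2. For *far-3*, *far-6*, *far-1* and *far-8* the lag does not separate level from timing. *far-1* was higher in the mutant in 11 of 11 matched pairs, and *far-8* was nearly level over time with a small difference in level. For *far-1* a 5 h lag left nearly as little (0.0954 log2). Longer lags used fewer pairs, 14 at 0 h and 8 at 6 h. Since the 3 h delay was inferred from this same time course, neither these lags nor the crossing times above are separate evidence for it.

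*far-4* was close to absent from these larvae. It had 16 reads in all, 13 in the mutant and 3 in wild type, and 0 reads in 7 of the 14 mutant and 11 of the 14 wild-type libraries. Its highest level was 0.618 CPM (4 reads, at 30 h) in the mutant and 0.160 CPM (1 read, at 21 h) in wild type. A count of 0 allows up to 3 reads, or 0.322 to 0.526 CPM in the mutant libraries and 0.312 to 0.586 CPM in the wild-type libraries. Without the low-count filter the edgeR adjusted p was 0.256, and a difference was not detectable at this depth.

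Over all 28 libraries the profiles of *far-5* and *far-7* had a Pearson r of 0.861 (0.886 in the mutant and 0.871 in wild type), although they lie on different chromosomes. *far-1* and *far-2* had -0.857 (-0.852 in the mutant and -0.917 in wild type). *far-3* and *far-6* had 0.626 over both genotypes, 0.177 in the mutant and 0.915 in wild type. These describe log2(CPM + 1) over hours of a single course per genotype, which share their trends, and carry no p.

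The genes with the most similar profiles were ranked by Pearson r over the 28 libraries among genes of at least 1 CPM on average. For *far-3* they were the lysozyme gene *lys-7* (0.924), F09C8.1 (0.918) and the C-type lectin gene *clec-61* (0.883). Within a genotype these were lower or uneven, at 0.658 in the mutant and 0.924 in wild type for *lys-7*, 0.708 in the mutant and 0.892 in wild type for F09C8.1, and 0.510 in the mutant and 0.744 in wild type for *clec-61*. For *far-6* they were *asp-4* (0.866), an aspartyl protease gene, the lysosomal-type lipase gene *lipl-5* (0.856) and *skr-4* (0.852). *far-2* was closest to the synaptonemal complex gene *syp-4* (0.980), *iff-1* (0.976) and WBGene00004179 (0.976), while *far-1* was closest to *casy-1* (0.975), *sem-4* (0.967) and the synaptotagmin gene *snt-4* (0.965).

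Among the rhythmic members, *far-5* was closest to AC3.5 (0.952), C05D9.9 (0.950) and C29E4.15 (0.941), and *far-7* to the intermediate filament gene *ifb-1* (0.934), *acp-6* (0.920) and the pyruvate kinase gene *pyk-1* (0.918). *far-8* was closest to *elo-1* (0.868), a fatty acid elongase gene, *dnj-11* (0.835) and *adk-1* (0.825).

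Other lipid carriers were read beside the family in the same matched test. Of 9 intracellular lipid-binding genes tested, 1 was higher and 3 were lower in the mutant (median log2 difference -0.09), where 11% of all genes were higher and 10.6% lower. *lbp-8*, whose product carries lipid signals from the lysosome to the nucleus, averaged 6.84 CPM in the mutant and 0.853 CPM in wild type (log2 difference 2.89), a size close to that of *far-3*. Like *far-3*, *lbp-8* did not reach the low-count filter in wild type alone, and genes kept through the mutant libraries had to differ. *lbp-6* (-0.50), *lbp-5* (-0.29) and *lbp-4* (-0.19) were lower. Of 7 lipocalin-related genes, secreted carriers of the cuticle and other apical matrices, 4 were higher and 0 lower (median 0.47), led by *lpr-3* (0.76), *lpr-7* (0.76) and *lpr-4* (0.75). Their mean levels differed by less than these averaged log2 differences. In mutant and wild type they were 549 and 451 CPM for *lpr-3*, 25.8 and 22.4 for *lpr-7*, and 304 and 257 for *lpr-4*. In each genotype 6 of 7 oscillated, beside 16.5% of all genes in the mutant and 17.1% in wild type. Of 6 acyl-CoA-binding genes tested, *acbp-1* alone passed (-0.22), and the 1 vitellogenin gene tested did not.

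Enzymes that make or release fatty acids moved unevenly, against the same shares of all genes (11% higher, 10.6% lower). Of 7 desaturase genes 2 were higher and 0 lower: *fat-5*, a palmitate desaturase gene, averaged 112 CPM in the mutant and 46.7 CPM in wild type (log2 difference 1.19), and *fat-6*, a stearate desaturase gene, had a log2 difference of 0.26. Of 11 synthesis and elongation genes tested, *elo-4* was higher (0.46) and *elo-1* (-0.33) and *let-767* (-0.13) were lower. *elo-4* oscillated in both genotypes, and its means of 16.6 CPM in the mutant and 14.2 CPM in wild type differed by less than its averaged log2 difference. Of 8 lysosomal and lipid droplet lipase genes tested, 4 were higher and 0 lower (median 0.50). *lipl-1* averaged 21.9 CPM in the mutant and 3.97 CPM in wild type (log2 difference 2.35), and *lipl-2* and *lipl-5* had log2 differences of 2.27 and 0.66. *lipl-2* also did not reach the low-count filter in wild type alone, so its call carries the limit given for *far-3*.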

How the data were processed

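Whole-larva poly(A) RNA was sequenced as stranded paired-end libraries. The authors aligned reads to ce10 through QuasR with HISAT2, a tool named in the submitters' processing notes whose version is not given in the sources used here. Reads were assigned to WS220 exons of each gene on the expected strand. The counts that the authors deposited were not normalized, and each test started from them. The deposited log2 values were scaled by the authors to the mean library total with a pseudocount of 8. They matched recomputed values to within 0.0005 and were used for this check alone.

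Genes were tested in edgeR 4.0.16 under R 4.3.3 (quasi-likelihood, TMM, filterByExpr by genotype, Benjamini-Hochberg over all genes tested, threshold 0.01). The matched fit had 22 libraries, a cubic B-spline of hour with 6 components, genotype and their interaction, leaving 8 residual degrees of freedom. A limma 3.58.1 fit of the same model to the log2 scale and DESeq2 1.42.0 were alternatives, with other scalings, filters, shifts and left-out pairs. The limma fit was scaled by library totals, without TMM. CPM were counts over library totals. The procedure was tested on simulated data. No library pair was identical (0 pairs). Gene names matched 19182 of 20392 IDs.

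All members were named whatever they showed. The other genes named were the 3 nearest profiles of each member tested, and up to 3 higher and 3 lower called genes of each list by size. Members and lists were chosen with earlier results of these data known. The WBcel235 annotation served for chromosomes, lengths and neighbours alone. No sequence was used here, so a planned motif search of promoters was not run.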

Additional observations from a re-analysis of the deposited data

How the results depend on the processing

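Of 588 comparisons of a member's result with an alternative, 540 kept the side of the threshold and, where there was one, the direction. A further 25 lost the threshold, 17 gained it and 6 changed sign. Amplitudes and the tests of any difference and of rhythm difference have no sign, so those comparisons could not change it. Changes of sign concerned *far-7* (log2 difference -0.048 with a 2 h shift, -0.22 with none, -0.032 to 0.14 on leaving out single pairs), *far-2* (0.059 with a 4 h shift) and the uncalled change of *far-8* over time in wild type (-0.0038 with limma, -0.0085 without 31 h). The 4 *far* members called in the matched mean became 2 with limma, 2 with a 4 h shift and 2 to 4 without single pairs (2 without the pair at wild-type 19, 21 or 25 h). Of all genes called, 50.9% were higher in the mutant, against 67.9% with total counts and 69.6% with limma, which was also scaled by library totals. The median log2 difference of all genes was 0.04 with TMM, 0.03 with DESeq2 size factors and 0.08 with total counts.

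The test of any difference called 796 genes, and 399 with limma, 3192 with a 2 h shift (5 members), 2583 with a 4 h shift and 282 to 759 without single pairs (1 to 2 members). The interaction called 0 genes, and 1 without a filter, 1517 with a 2 h shift (1 member), 1502 with a 4 h shift and 0 to 4 without single pairs. Rhythm differences numbered 4, and 2 without a filter, 1 with limma, 2186 with a 2 h shift (1 member), 2288 with a 4 h shift (2 members) and 0 to 10 without single pairs. Gradual genes in the mutant numbered 1086, and 2075 without a filter and 1684 with a filter set by the design matrix. In wild type they numbered 1296, and 3261 and 2950 with those filters, while oscillating genes there numbered 1832, and 2802 without a filter. Gradual members became 2 with a 7.5 h period in the mutant and, in wild type, with that period or either filter change. The design-matrix filter was chosen after seeing the data. The cause of these changes was not tested. The labels give no replicate numbers. With the 11 stage-matched pairs as a block in place of the spline, 2291 genes and 3 members were called: *far-2* (edgeR adjusted p = 0.0267) and *far-8* (0.0203) were lost and *far-1* (0.00607) was gained. Depth limited *far-4* and wild-type *far-3*.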
